A study of Mus musculus with 16 samples.

Results

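The pigment genes of melanocytes were described in epidermal cells from the mouse footpad. The 9 genes, of 50600 gene identifiers in the table, were picked by name for their known roles in pigment cells, at a time when earlier results of these data were known: the pigment enzymes Dct, Tyr and Tyrp1, the melanosome proteins Pmel and Mlana, the transcription factors Mitf and Sox10, the receptor Kit and its ligand Kitl. Each of the 9 had 1 row in the table, and all 9 passed the filter of at least 10 counts summed over all libraries.

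Melanocytes make melanin inside melanosomes, starting from tyrosine. Tyrosinase (Tyr) carries out the first, rate-limiting oxidation, and Dct (dopachrome tautomerase) and Tyrp1 act further along the eumelanin branch. Pmel forms the fibrils on which pigment settles, Mlana is a melanosome protein that helps Pmel mature, Mitf is the lineage's main transcription factor, and Sox10 switches on Mitf and several pigment genes. Melanocytes depend on Kit, a receptor tyrosine kinase, and on Kit ligand (Kitl), which keratinocytes and fibroblasts supply. Outside this lineage, mast cells use Kit and Mitf, and Schwann cells and sweat gland cells use Sox10.

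Female C57/B6J mice received, from 5 weeks of age and for 3 weeks, a purified diet poor in ligands of the aryl hydrocarbon receptor (AhR-poor diet), or that diet with 200 ppm indole-3-carbinol, a plant compound whose products bind AhR (I3C diet). Footpads were injected with 50 µl of PBS, either alone (vehicle) or with 50 µg papain, a plant protease that acts as an allergen, and epidermal cells were taken 6 hr later. The 4 groups were I3C diet with vehicle (libraries T108 to T111), AhR-poor diet with vehicle (T100 to T103), I3C diet with papain (T106, T113, T114, T115) and AhR-poor diet with papain (T104, T105, T107, T112), with 4 libraries each. Mice of 1 diet shared a cage according to the methods, so that diet and cage cannot be told apart. In bulk epidermal RNA, fewer cells of a type and less RNA per cell cannot be told apart either.

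Library totals ran from 22500821 to 51844375 counts. Levels are given as CPM (counts-per-million values, on library sizes scaled by TMM), and at these depths 3 counts, taken as the detection floor, were worth 0.0579 to 0.133 CPM before that scaling. Melanocyte RNA was a small part of the preparation. The summed level of the 6 genes used as melanocyte markers (Dct, Tyr, Tyrp1, Pmel, Mlana, Sox10) ran from 0.962 to 11.8 CPM over the 16 libraries, whereas 8 basal keratinocyte markers summed to between 21458 and 38714 CPM.

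The genes lie on 8 chromosomes of GRCm38. Promoter sequence is shown for 3 of them, which encode the pigment enzymes and were called together by diet with papain. They were also picked for a shared Mitf-type motif within 250 bases of their starts. Tyr is at chr7:87424771-87493512 on the minus strand, Tyrp1 at chr4:80834123-80851719 on the plus strand and Dct at chr14:118012790-118052244 on the minus strand. The stretches below are from RefSeq promoters (GRCm38.p6), each 100 bases, 5′ to 3′ on the gene's strand. The capitals mark CATGTG, an E-box of the kind bound by Mitf, searched on both strands with CACGTG in the 250 bases before the start.
Tyr, chr7:87493513-87493612: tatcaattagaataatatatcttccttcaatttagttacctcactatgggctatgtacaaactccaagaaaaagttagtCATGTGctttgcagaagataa
Tyrp1, chr4:80834113-80834212: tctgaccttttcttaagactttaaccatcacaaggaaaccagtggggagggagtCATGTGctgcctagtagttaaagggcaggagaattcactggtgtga
Dct, chr14:118052347-118052446: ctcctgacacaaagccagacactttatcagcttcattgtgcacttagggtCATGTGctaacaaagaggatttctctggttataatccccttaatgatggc

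The match in Tyr began 21 bases before the RefSeq start and that in Tyrp1 46 bases before it. The GENCODE gene given above for Tyrp1 begins upstream of the RefSeq start, so that the Tyrp1 match lies within that longer gene model. Dct held 2 matches, 150 and 232 bases before its start, of which the nearer is shown. Of the 32851 promoters in the table, 12.3% held CATGTG and 6.02% held CACGTG. The RefSeq table had entries for 6 of the 9 genes. Those of Mitf, Kit and Kitl held neither motif in the searched bases, and none of the 6 held CACGTG. These matches describe letters and were not tested for binding.

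The other 6 genes are Pmel at chr10:128704195-128720238, Mlana at chr19:29697824-29708634, Mitf at chr6:97807052-98021349, Kit at chr5:75574916-75656722 and Kitl at chr10:100015630-100100416, all on the plus strand, and Sox10 at chr15:79154908-79165240 on the minus strand. Pmel shares short exonic stretches with Dgka and Cdk2, both on the opposite strand. Neither neighbour was called by diet: Dgka gave a log2 difference (AhR-poor minus I3C) of -0.06 ± 0.09 (SE) with vehicle and -0.22 ± 0.09 with papain, and Cdk2 of -0.15 ± 0.07 and 0.02 ± 0.07 (edgeR adjusted p of 0.0985 or more for all 4).

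Per exonic length, the order of levels in the AhR-poor vehicle group was led by the ligand and not by a pigment gene. Kitl stood at 2.12 ± 0.329 CPM per kb (SD, n = 4), above Mitf at 1.04 ± 0.159 and Pmel at 1.0 ± 0.138, which did not differ beyond their spread. Dct at 0.473 ± 0.0643 and Tyrp1 at 0.441 ± 0.0203 were also within their spread of each other. Kit followed at 0.263 ± 0.0589 and Mlana at 0.191 ± 0.0847, whose ranges met. Tyr at 0.0520 ± 0.0183 and Sox10 at 0.050 ± 0.0342 were the lowest and were alike within their spread.

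**Figure D1:**
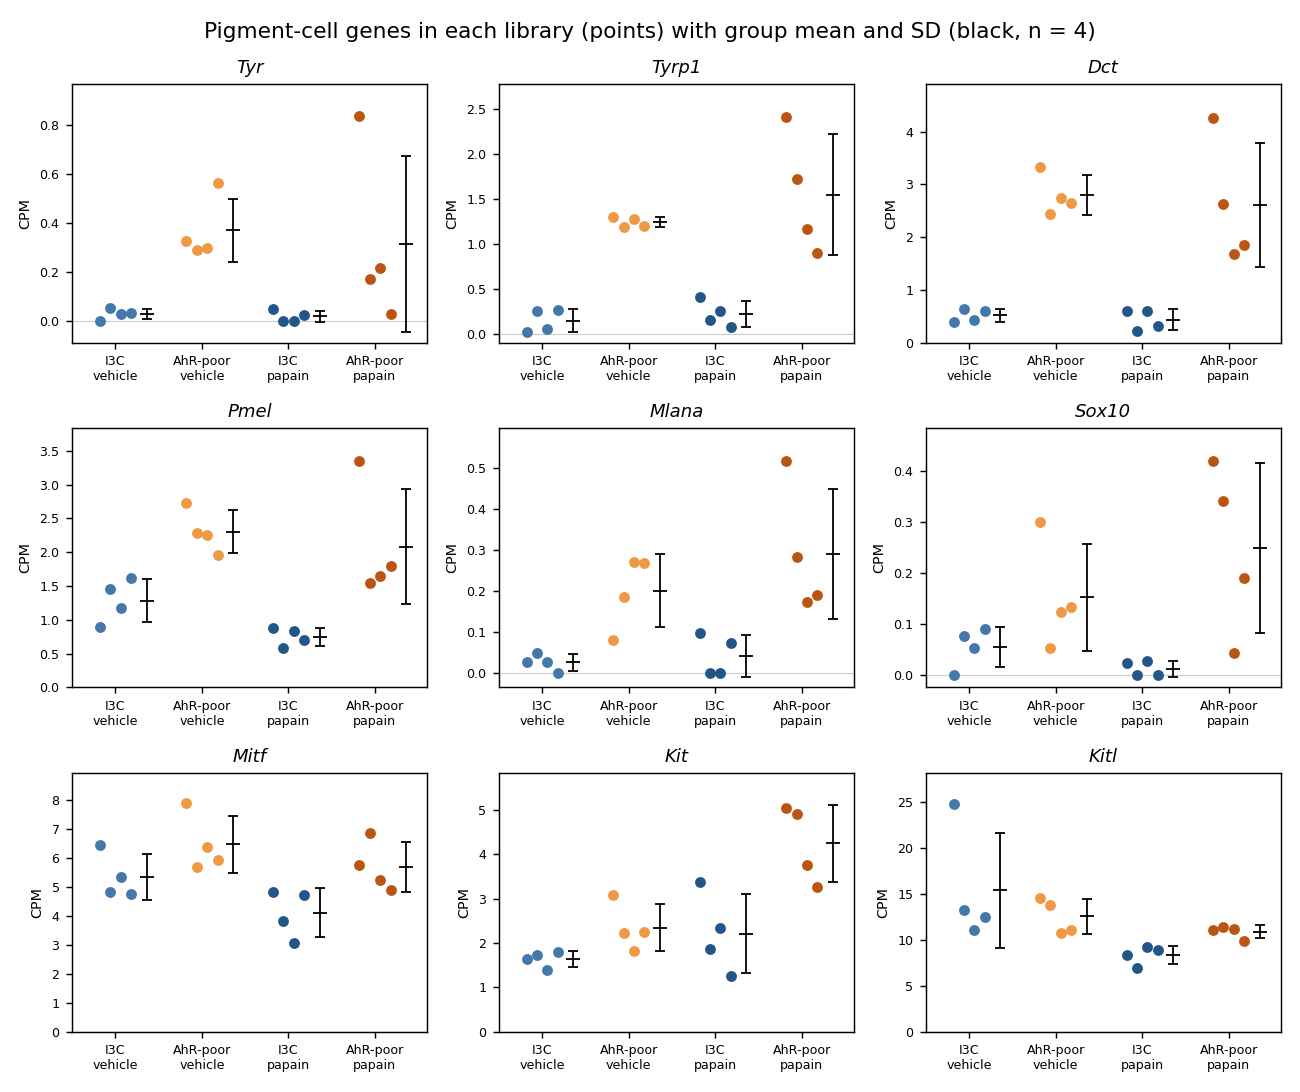
Level of the 9 genes in CPM (linear vertical axes) in each of the 16 libraries. Points are single libraries in the order of their codes, and black marks give the mean and SD of the 4 libraries of a group. Dct lies between 1.69 and 4.26 CPM in the 8 AhR-poor libraries and between 0.224 and 0.637 CPM in the 8 I3C libraries.

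With papain the AhR-poor diet gave higher levels of all 3 pigment enzymes, and with vehicle of Dct and Tyrp1. Dct stood at 0.402, 0.637, 0.435 and 0.600 CPM in the I3C vehicle libraries (T108 to T111), and at 3.32, 2.44, 2.74 and 2.66 CPM in the AhR-poor vehicle libraries (T100 to T103). With papain it stood at 0.609, 0.224, 0.599 and 0.323 CPM on the I3C diet (T106, T113, T114, T115) and at 4.26, 2.64, 1.69 and 1.85 CPM on the AhR-poor diet (T104, T105, T107, T112). All 8 AhR-poor libraries were above all 8 I3C libraries, and T104 was the highest of all. The fitted log2 difference in Dct (AhR-poor minus I3C) was 2.42 ± 0.32 (SE) with vehicle, a 5.34-fold higher level (edgeR quasi-likelihood test, adjusted p = 2.21e-04), and 2.56 ± 0.33 with papain, or 5.90-fold (adjusted p = 1.88e-05).

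Tyrp1 was read at 1, 10, 2 and 9 counts in the I3C vehicle libraries, worth 0.0287, 0.255, 0.0544 and 0.270 CPM. In the AhR-poor vehicle libraries it stood at 1.31, 1.19, 1.29 and 1.21 CPM, a narrow band of 45 to 52 counts. With papain the I3C libraries gave 0.414, 0.160, 0.257 and 0.0746 CPM, and the AhR-poor libraries 2.41, 1.73, 1.17 and 0.897 CPM. The diets did not overlap with either injection, and the largest spread was among the AhR-poor papain libraries, where T104 and T105 lay above T107 and T112. The log2 difference was 3.01 ± 0.50 (SE) with vehicle (8.03-fold, edgeR adjusted p = 0.00125) and 2.76 ± 0.46 with papain (6.76-fold, adjusted p = 2.78e-04).

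Tyr was near the floor on the I3C diet, with 0, 2, 1 and 1 counts with vehicle and 2, 0, 0 and 1 counts with papain. On the AhR-poor diet it had 12, 11, 12 and 21 counts with vehicle (0.327, 0.291, 0.297 and 0.563 CPM) and 34, 9, 5 and 1 counts with papain (0.837, 0.171, 0.216 and 0.0272 CPM). With vehicle every AhR-poor library was above every I3C library, whereas with papain T112, at 1 count, lay within the I3C range. The ratio of summed counts, scaled for library size, was 13.3 with vehicle (exact 95% interval 4.90 to 50.3) and 15.7 with papain (5.07 to 78.9). These intervals cover counting error only. Tyr passed the edgeR test with papain (adjusted p = 0.00658) and missed it with vehicle (adjusted p = 0.0239), where DESeq2 did call it (adjusted p = 0.00869), as did edgeR with only the 8 vehicle libraries (0.00260), without T104 (0.00511) or without T112 (0.00685). Without T104, which held 34 of the counts, the papain call was lost (log2 difference 2.53, edgeR adjusted p = 0.0496), as it was without T113, T114 or T115 (adjusted p = 0.0212, 0.0238 and 0.0219).

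Both melanosome proteins were called higher on the AhR-poor diet with papain and not with vehicle. Pmel stood at 0.890, 1.45, 1.17 and 1.62 CPM in the I3C vehicle libraries and at 2.72, 2.28, 2.25 and 1.96 CPM in the AhR-poor vehicle libraries. With papain it stood at 0.877, 0.577, 0.828 and 0.696 CPM on the I3C diet and at 3.35, 1.54, 1.64 and 1.79 CPM on the AhR-poor diet. The diets did not overlap with either injection. The log2 difference was 0.84 ± 0.26 (SE) with vehicle, which did not pass (edgeR adjusted p = 0.0991), and 1.48 ± 0.27 with papain, which did (2.79-fold, adjusted p = 6.11e-04). Without T104, the highest of the AhR-poor papain libraries, the papain difference was 1.13 and kept its call (adjusted p = 0.00343).

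Mlana was read at 1, 2, 1 and 0 counts in the I3C vehicle libraries and at 3, 7, 11 and 10 counts in the AhR-poor vehicle libraries. With papain it had 4, 0, 0 and 3 counts on the I3C diet and 21, 15, 4 and 7 counts on the AhR-poor diet. The diets did not overlap in CPM with either injection, although T100 and T107 held only 3 and 4 counts. The ratio of summed counts was 7.34 with vehicle (exact 95% interval 2.59 to 28.6, edgeR adjusted p = 0.0664) and 6.46 with papain (2.90 to 16.9), where Mlana passed the test narrowly (fitted log2 difference 2.60 ± 0.67, adjusted p = 0.00994). That call was lost in 12 of 16 fits that each left out 1 library, with an adjusted p of 0.0471 without T104.

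The 2 transcription factors differed in level and in their diet values. Mitf stood at 6.43, 4.82, 5.33 and 4.74 CPM in the I3C vehicle libraries and at 7.87, 5.69, 6.38 and 5.90 CPM in the AhR-poor vehicle libraries, and these overlapped. With papain it stood at 4.82, 3.82, 3.05 and 4.72 CPM on the I3C diet and at 5.74, 6.85, 5.24 and 4.87 CPM on the AhR-poor diet, where the lowest AhR-poor library was just above the highest I3C library. The log2 difference was 0.28 (95% interval -0.05 to 0.60) with vehicle and 0.47 (0.14 to 0.80) with papain, and neither passed the edgeR test (adjusted p = 0.555 and 0.0570). Both intervals ended below a log2 difference of 1.

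Sox10 was at or below 3 counts in every I3C library, with 0, 3, 2 and 3 counts with vehicle and 1, 0, 1 and 0 counts with papain. On the AhR-poor diet it had 11, 2, 5 and 5 counts with vehicle, overlapping the I3C libraries, and 17, 18, 1 and 7 counts with papain, all above the I3C libraries in CPM. The ratio of summed counts was 2.72 with vehicle (exact 95% interval 1.18 to 7.04, edgeR adjusted p = 0.477) and 20.7 with papain (5.39 to 176, adjusted p = 0.00293). T107 held a single count. The papain call was lost without T113, T115 or T104 (adjusted p = 0.0106, 0.0140 and 0.0124).

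Neither Kit nor its ligand passed the diet test. Kit stood at 1.64, 1.73, 1.39 and 1.80 CPM in the I3C vehicle libraries and at 3.08, 2.22, 1.83 and 2.25 CPM in the AhR-poor vehicle libraries, which did not overlap although T102 was just above T111. With papain it stood at 3.39, 1.86, 2.34 and 1.27 CPM on the I3C diet and at 5.05, 4.91, 3.77 and 3.26 CPM on the AhR-poor diet. T106 was the highest I3C library and lay above T112, the lowest AhR-poor library. The log2 difference by diet was 0.52 ± 0.26 (SE) with vehicle and 0.94 ± 0.25 with papain, and neither passed (edgeR adjusted p = 0.427 and 0.0107). With library sizes alone in place of TMM factors, the papain difference was 1.04 and passed (adjusted p = 0.00747). Without T106 it was 1.24 and passed (adjusted p = 9.26e-04), and without T112 it was 1.05 and passed (adjusted p = 0.00754).

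Kitl was the most abundant of the 9 genes. It stood at 24.7, 13.2, 11.1 and 12.4 CPM in the I3C vehicle libraries, at 14.5, 13.8, 10.7 and 11.02 CPM in the AhR-poor vehicle libraries, at 8.33, 6.93, 9.16 and 8.88 CPM in the I3C papain libraries and at 11.03, 11.4, 11.1 and 9.82 CPM in the AhR-poor papain libraries. T108 stood far above every other library, and the 4 I3C papain libraries were the lowest of all 16. The log2 difference by diet was -0.29 (95% interval -0.68 to 0.09) with vehicle and 0.38 (-0.01 to 0.77) with papain, and neither passed (edgeR adjusted p = 0.613 and 0.200). Without T108 the vehicle difference was 0.03.

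Over all 9 genes, 2 were called higher on the AhR-poor diet with vehicle (Dct and Tyrp1) and 0 lower. A gene was called when the edgeR adjusted p was below 0.01 and the log2 difference above 1 in size. Of all 22155 genes tested, 1.59% were called higher. The AhR-poor libraries lay above the I3C libraries without overlap for 6 of 9 (the 3 enzymes, Pmel, Mlana and Kit), against 6.45% of all genes. The median log2 difference of the 9 genes was 1.40, or 0.87 with the genes at the floor set to their bound, beside -0.01 for all genes. With papain, 6 of 9 were called higher (the 3 enzymes, Pmel, Mlana and Sox10) and 0 lower, against 7.15% of all genes called higher. The diets did not overlap in CPM for 7 of 9 (Dct, Tyrp1, Pmel, Mlana, Mitf, Kitl and Sox10), against 12.5% of all genes. For Mlana and Sox10 they met in raw counts, since T107, the smallest library, held 4 and 1, as did T106. The median was 2.56, or 1.59 with floor genes at their bound, beside 0.01 for all genes. The vehicle and papain comparisons used separate libraries, but the same fit with a shared estimate of spread. In both, diet and cage cannot be told apart.

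**Figure D2:**
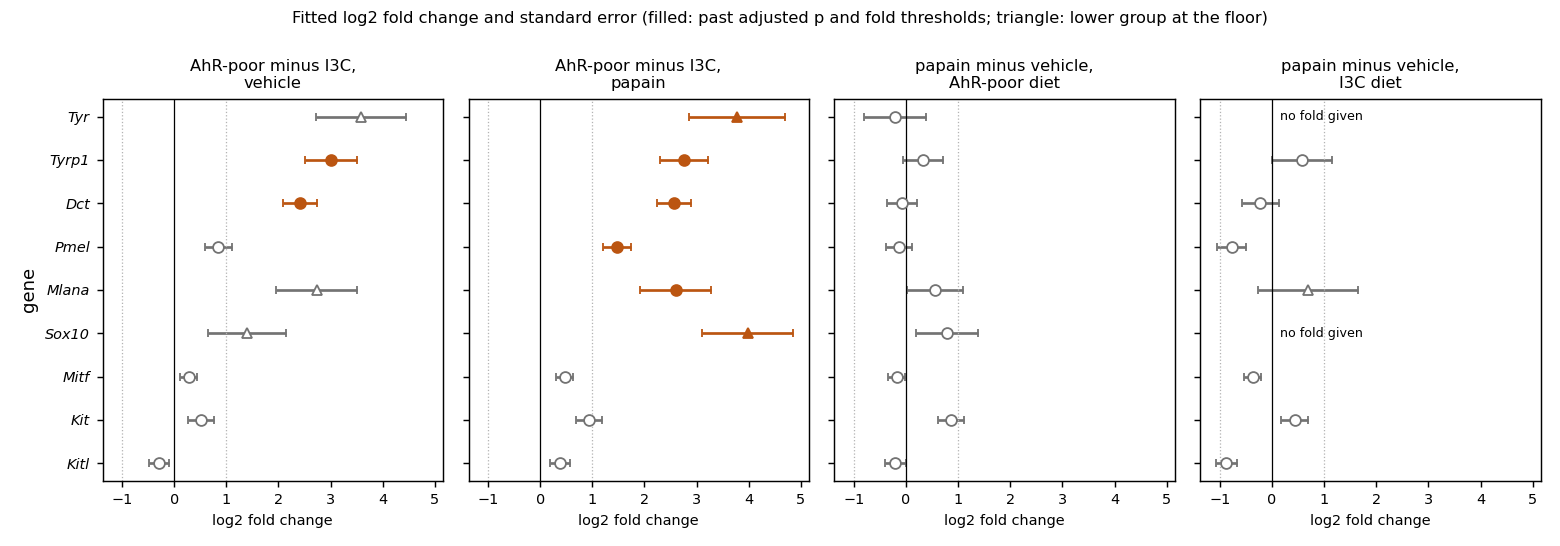
Fitted log2 fold change (horizontal axis) of the 9 genes in 4 comparisons, with bars of 1 standard error. Filled symbols passed the adjusted p and fold thresholds, triangles mark a lower group with at most 3 counts in every library, and dotted lines mark a log2 fold change of 1 in size. Filled symbols stand for 2 genes by diet with vehicle, 6 by diet with papain and 0 by papain on either diet.

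The papain comparisons asked whether the same genes moved within 6 hr of the protease. On the AhR-poor diet 0 of 9 genes were called, by edgeR and by DESeq2 alike, where 8.46% of all genes were called in either direction. At an unadjusted p below 0.05 edgeR gave 1 gene, Kit, with a log2 difference (papain minus vehicle) of 0.86 ± 0.25 (SE, adjusted p = 0.0108). Kit was also the 1 gene of the 9 whose papain libraries all lay above its vehicle libraries, against 17% of all genes. Without T100, the highest vehicle library, its difference was 1.03 and passed (adjusted p = 0.00620). The values for Dct were -0.08 (95% interval -0.64 to 0.47), for Tyrp1 0.33 (-0.43 to 1.09) and for Pmel -0.14 (-0.63 to 0.35). A log2 change of 1 in size was outside the interval for Dct and Pmel and within it for Tyrp1. These comparisons share the AhR-poor vehicle libraries with the diet comparison above.

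On the I3C diet 0 of 9 genes were called with papain by edgeR and by DESeq2, where 8.98% of all genes were called in either direction. At an unadjusted p below 0.05 edgeR gave 3 genes, all with lower values with papain. Kitl had a log2 difference of -0.88 ± 0.20 (SE), which passed the adjusted p (0.00182) and not the minimum fold. Pmel had -0.78 ± 0.27 (adjusted p = 0.0335) and Mitf -0.37 ± 0.17 (adjusted p = 0.0969). For 2 of the 9, Kitl and Pmel, every papain library was below every vehicle library, against 17.3% of all genes. Kitl passed both thresholds without T110 (log2 difference -1.01, adjusted p = 3.65e-04), and without T108 its difference was -0.55. Tyr and Sox10 were at the floor in both I3C groups, and no fold is given for them.

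The interaction term asked whether the diet difference changed with papain. It called 0 of 9 genes by edgeR and by DESeq2, where 0.0181% of all genes were called. At an unadjusted p below 0.05 edgeR gave 1, Kitl, with a difference of log2 differences of 0.67 (95% interval 0.13 to 1.22, adjusted p = 0.312). The value for Dct was 0.14 (-0.75 to 1.03), for Tyrp1 -0.25 (-1.59 to 1.09) and for Pmel 0.64 (-0.09 to 1.36). The larger number of calls with papain is therefore not shown to be a larger diet effect on these genes.

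Other genes known from pigment cells gave few calls. Some of them stood far above the melanocyte markers, with group means of 89.0 to 101.7 CPM for Mreg, 46.7 to 55.9 CPM for Rab38 and 5.08 to 17.1 CPM for Gpnmb, so that the list was not restricted to melanocytes in this preparation. Others, namely Oca2, Slc45a2, Slc24a5, Mc1r, Pax3 and Tspan10, had means of 0.0222 to 0.110 CPM over all libraries. For these, depth limited what could be called. Of 11 tested genes among the 12, 0 were called by diet with vehicle and 1 with papain, where 1.59% and 7.15% of all genes were called higher. In each comparison 9 of 11 had values above 0. The gene called was Ednrb, the endothelin receptor that melanoblasts use and that endothelial cells also carry, with a log2 difference of 4.31 ± 0.63 (SE, edgeR adjusted p = 1.02e-04). Ednrb was also called higher with papain on the AhR-poor diet (2.42 ± 0.52, adjusted p = 0.00163). Gpnmb, a melanosome glycoprotein that macrophages make too, was called lower with papain on the I3C diet (-1.75 ± 0.19, adjusted p = 8.79e-07). By papain, 8.46% of all genes were called in either direction on the AhR-poor diet and 8.98% on the I3C diet. The median of the list by diet was 1.81 with vehicle and 0.70 with papain, or 0.41 and 0.61 with floor genes at their bound.

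Genes for melanosome formation and transport, most of which other cells use for their own lysosome-related organelles, gave 0 of 22 calls by diet with either injection, with medians of 0.02 and -0.08. With papain 1 of the 22 was called higher on both diets, Slc7a11, the cystine transporter whose activity sets the balance towards pheomelanin and which also serves in oxidative stress. Its log2 difference was 4.23 ± 0.34 (SE) on the AhR-poor diet and 3.13 ± 0.32 on the I3C diet (edgeR adjusted p = 6.10e-07 and 3.37e-06). Of all genes, 1.59% were called higher by diet with vehicle and 7.15% with papain. By papain, 8.46% of all genes were called in either direction on the AhR-poor diet and 8.98% on the I3C diet.

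Of 13 tested paracrine regulators and their receptors, 0 were called by diet with vehicle and 2 with papain, both higher on the AhR-poor diet. These were Fgf2 (2.05 ± 0.37, edgeR adjusted p = 5.22e-04) and Hgf (3.20 ± 0.65, adjusted p = 0.00151), growth factors that fibroblasts and other cells make and to which melanocytes respond. Of all genes, 1.59% were called higher by diet with vehicle and 7.15% with papain. By papain, 8.46% of all genes were called in either direction on the AhR-poor diet and 8.98% on the I3C diet. With papain on the AhR-poor diet Fgf2, Hgf and Nrg1 were called higher, by 1.52, 2.21 and 2.16 on the log2 scale, and on the I3C diet Nrg1 alone was, by 1.90. Among the 3 paralogs of Mitf, Tfec was called higher by diet with papain (edgeR adjusted p = 4.39e-04), and also with papain on the AhR-poor diet. It had 4 to 46 counts in the AhR-poor papain libraries and at most 1 count in any other library, which is at the floor. Tfe3 and Tfeb were not called in any comparison.

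Markers of other cell types moved with diet too, where 1.59% of all genes were called higher with vehicle and 7.15% with papain. Of 8 mast cell markers, 2 were called higher by diet with vehicle and 8 with papain. Their summed level ran from 0.180 to 0.316 CPM in the I3C vehicle libraries, from 2.47 to 7.36 in the AhR-poor vehicle libraries, from 0.371 to 6.26 in the I3C papain libraries and from 32.1 to 271 in the AhR-poor papain libraries. Fcer1a and Ms4a2 were at 0 in both I3C groups. Hdc, the histidine decarboxylase that other myeloid cells also make, was the most abundant of the 8, and without it, a choice made after its values were seen, the sums ran from 0.136 to 0.258 CPM, 1.48 to 6.05 CPM, 0.0641 to 0.341 CPM and 6.88 to 20.8 CPM in the same order of groups. With papain on the I3C diet, the sum without Hdc was 0.341, 0.0641, 0.114 and 0.174 CPM in T106, T113, T114 and T115, beside Kit at 3.39, 1.86, 2.34 and 1.27 CPM. On the AhR-poor diet it was 15.3, 20.8, 13.0 and 6.88 CPM in T104, T105, T107 and T112, beside Kit at 5.05, 4.91, 3.77 and 3.26 CPM. On the AhR-poor diet T104 and T105 changed places between the 2 measures, and T107 and T112 kept theirs. On the I3C diet these sums rested on few counts, at most 9 of Gata2 and 4 of Mcpt4 in any papain library. Their order was therefore not compared. The part of mast cells in the Kit values was not tested.

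Of 12 dermal fibroblast markers, 11 were called higher by diet with each injection, and their sum ran from 78.2 to 102.5 CPM, 177 to 268 CPM, 157 to 168 CPM and 462 to 903 CPM in the I3C vehicle, AhR-poor vehicle, I3C papain and AhR-poor papain groups. Most of the sum in the I3C groups came from Thy1, at means of 80.5 CPM with vehicle and 156.7 CPM with papain. With papain against vehicle on the I3C diet, 0 of the 12 were called higher and 1 lower, beside 8.98% of all genes in either direction. Of 8 endothelial markers, 7 were called higher by diet with each injection. Of all genes, 1.59% were called higher by diet with vehicle and 7.15% with papain. Of 8 neutrophil markers, 0 were called by diet with vehicle and 4 with papain, and their sum ran from 1.01 to 2.61 CPM, 6.92 to 7.19 CPM, 46.6 to 79.1 CPM and 140.6 to 981 CPM in the same order of groups. In the I3C papain group most of it came from Cxcr2, S100a9 and S100a8, at means of 24.2, 16.9 and 16.6 CPM. There Csf3r, Retnlg and Fcgr4 stood at 0.739, 0.0891 and 0.0731 CPM, and Ly6g at 0. On the AhR-poor diet, 12 of 12 fibroblast, 2 of 8 endothelial and 8 of 8 neutrophil markers were called higher with papain than with vehicle. Of the 6 melanocyte markers 0 were, where 8.46% of all genes were called in either direction. The summed melanocyte markers ran from 6.43 to 8.06 CPM with vehicle and from 4.93 to 11.8 CPM with papain. The part of dermal cells and neutrophils in the pigment gene values was not tested.

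Among other cells that use Sox10, 0 of 9 tested Schwann cell markers were called by diet with vehicle and 1, Scn7a, with papain, where 7.15% of all genes were called higher. With papain 8 of the 9 had values above 0, and the median was 0.40 (0.24 with floor genes at their bound) beside 0.01 for all genes. The sum of the list lay between 75.4 and 107.6 CPM in all libraries, most of it from Mbp, at group means of 53.6 to 80.6 CPM, and Pmp2 was at 0 throughout. Of 8 sweat gland markers, 0 and 1 (Foxc1) were called by diet. Of 17 hair follicle and hair shaft markers 0 were called by diet with vehicle and 1, Krt73, with papain, with medians of 0.44 and 2.88 (0.83 and 2.66 with floor genes at their bound). Beside the sweat gland and hair counts, 1.59% of all genes were called higher with vehicle and 7.15% with papain. Values above 0 were found for 12 of the 17 by diet with vehicle, for 16 with papain and for 17 in the interaction. The hair marker sums overlapped between all groups, and T104 had the highest of all 16 libraries (105.8 CPM). Much of each sum came from Tchh, at group means of 16.3 to 25.1 CPM, and Hoxc13, at 11.2 to 15.5 CPM. The sums therefore say little about the other hair markers. T104 also had the highest melanocyte sum (11.8 CPM) and the lowest suprabasal keratinocyte sum, at 19093 CPM against 31738 to 34367 CPM in the other 3 libraries of its group. The Tyr, Mlana and Sox10 calls were lost without T104 and also without some other libraries, as given above. The part of T104's makeup in these calls was not tested. None of the 8 basal and 8 suprabasal keratinocyte markers was called by diet.

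**Figure D3:**
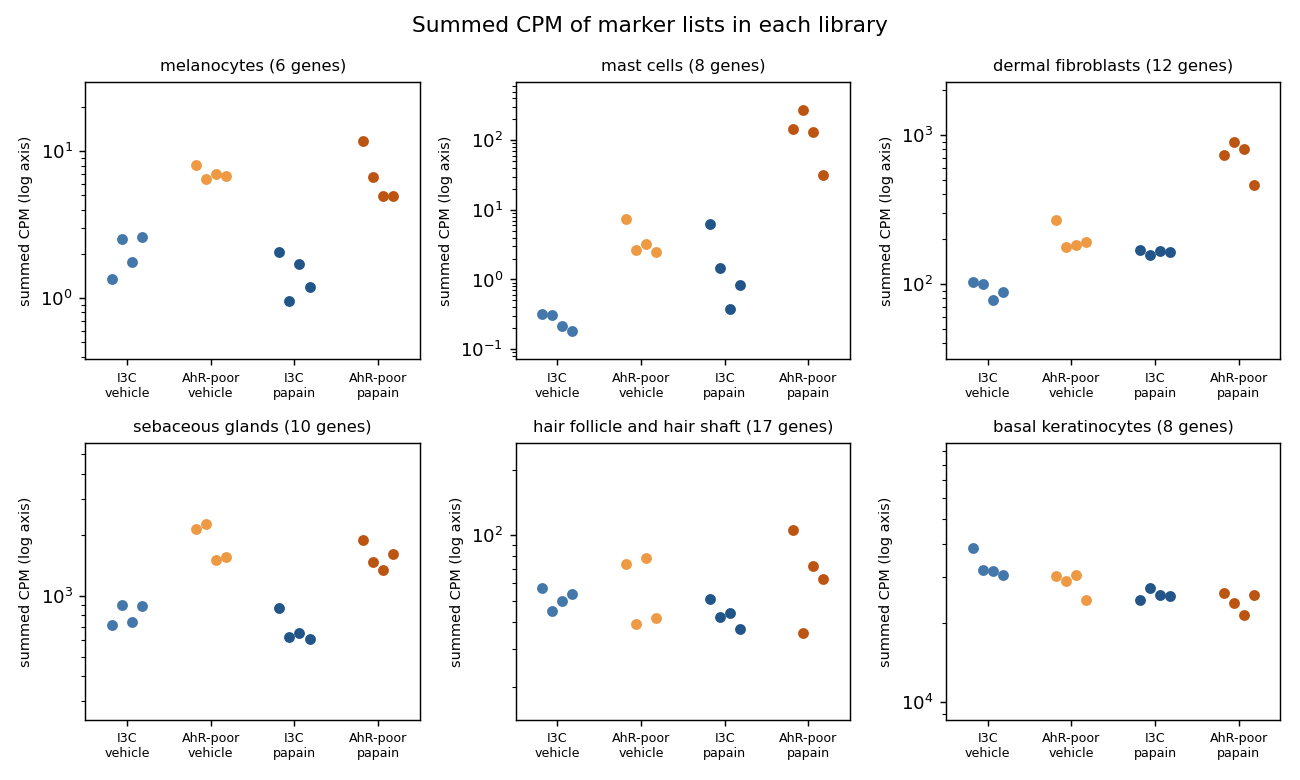
Summed CPM (logarithmic vertical axes with a separate range in each panel) of 6 marker lists in each of the 16 libraries, by group. Melanocyte markers lie between 4.93 and 11.8 CPM in the AhR-poor libraries and between 0.962 and 2.61 CPM in the I3C libraries, and mast cell markers reach 271 CPM with papain on the AhR-poor diet. In the I3C groups most of the fibroblast sum is Thy1, and most of the hair sum is Tchh and Hoxc13.

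The 8 other genes with a pattern most like that of Dct were picked by Pearson r of log2 CPM over the 16 libraries. These 8, picked without regard to likeness in level, came from 13021 genes with a mean of at least 1 CPM. They were Cmtm8 (r = 0.961), Podxl (0.957), Elovl3 (0.955), Acoxl (0.954), Gm13178 (0.954), Soat1 (0.953), Panx3 (0.952) and Gm5538 (0.951). Elovl3, which elongates fatty acids, and Soat1, which esterifies cholesterol, are known from the lipid-secreting cells of the skin. The libraries share the 4 groups, and after the group means were taken out r was between 0.531 and 0.661. Among the 9 genes, r with Dct over the same libraries was 0.938 for Tyrp1, 0.911 for Pmel, 0.892 for Tyr, 0.845 for Mlana, 0.842 for Sox10, 0.673 for Kit, 0.616 for Mitf and 0.174 for Kitl. After the group means were taken out these were 0.760, 0.813, 0.592, 0.357, 0.743, 0.6996, 0.0511 and 0.0598.

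A list of 10 sebaceous gland genes, chosen after the values of these neighbours were seen, held 8 genes called higher by diet with vehicle and 9 with papain, and 0 called with papain on either diet. Its summed level ran from 712 to 893 CPM in the I3C vehicle group, 1506 to 2266 CPM in the AhR-poor vehicle group, 609 to 872 CPM in the I3C papain group and 1333 to 1885 CPM in the AhR-poor papain group. The diets did not overlap, as for Dct. Of all genes, 1.59% were called higher by diet with vehicle and 7.15% with papain. By papain, 8.46% of all genes were called in either direction on the AhR-poor diet and 8.98% on the I3C diet. Scd3, a stearoyl-CoA desaturase, gave a log2 difference of 2.63 ± 0.30 (SE) with vehicle and 2.57 ± 0.31 with papain (edgeR adjusted p = 1.71e-04 and 3.39e-05). Any tie between these gland genes and the pigment genes was not tested.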

How the data were processed

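RNA-seq was done on epidermal cells from 16 mice, 4 per group. Per the labels and the methods, libraries were stranded and paired-end, and the authors aligned reads with STAR to mm10. The table holds whole-number counts per gene, as deposited by the authors, before normalization. The counting tool, annotation release and strand setting are not given in the sources used here. Of 50600 identifiers, 50376 were given symbols, positions and exonic lengths from GENCODE M21, and 224 had no match. The 22155 genes whose counts summed to 10 or more were fitted in R 4.3.3 with edgeR 4.0.16 (TMM factors, quasi-likelihood test, 1 mean per group over all 16 libraries), with Benjamini-Hochberg adjustment over all genes tested. Calls needed an adjusted p below 0.01 and a log2 difference above 1 in size, after the thresholds of the study. CPM used TMM-scaled library sizes. Which library ran in which of the sequencing units is not in the labels, so no batch was modelled. A group with at most 3 counts in every library was taken to be at the floor, and the ratio of summed counts then carries an exact interval for counting error. Separate mice are the replicates. With 4 against 4 libraries, an exact 2-sided permutation test cannot go below 0.0286. Alternatives were RLE factors, library size alone, other count filters, DESeq2 1.42.0, only the 8 libraries compared, other thresholds, and leaving out each library. The 9 genes and the lists were chosen with earlier results of these data known. The named genes were the 9, up to 4 called genes per list and comparison, and the 8 genes most like Dct. Some further genes are named for their level within a list.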

Additional observations from a re-analysis of the deposited data

Results flagged for a closer look

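Each gene was checked in each group of 4 libraries for a library far from the other 3, by Dixon's ratio (36 checks, of which chance flags about 1 in 20). Tyr stood at 0.563 CPM in T103 of the AhR-poor vehicle group, against 0.291 to 0.327 CPM in the other 3. Pmel stood at 3.35 CPM in T104 of the AhR-poor papain group, against 1.54 to 1.79 CPM in the other 3. Kitl stood at 24.7 CPM in T108 of the I3C vehicle group, against 11.1 to 13.2 CPM in the other 3.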

How the results depend on the processing

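With at least 10 counts required in every library, 4 of the 9 genes were tested, and the count called by diet was 0 with vehicle and 1 (Pmel) with papain. With no minimum fold, 1 gene (Kitl) was called with papain on the I3C diet. Leaving out 1 library at a time gave 3 to 7 calls by diet with papain, 0 to 1 with papain on the AhR-poor diet and 0 to 1 with papain on the I3C diet. The 3 calls that remained without T113, T115 or T104 were Dct, Tyrp1 and Pmel. In the same fits some values near 0 changed sign: by diet with vehicle Kitl ran from -0.43 to 0.034, with papain on the AhR-poor diet Dct from -0.43 to 0.0699 and Tyr from -1.44 to 0.17, with papain on the I3C diet Mlana from -0.00085 to 1.16, and in the interaction Dct from -0.20 to 0.37, Tyrp1 from -0.63 to 0.27 and Mlana from -0.60 to 0.56. Over all 907 values recomputed, 857 kept their direction and side of the threshold, 21 lost a call, 9 gained one and 20 changed sign. With only the 8 libraries compared, Tyr (adjusted p = 0.0332) and Mlana (0.0230) lost their papain calls by diet (edgeR), and 4 calls were left. By diet with vehicle the same setting gave 3 calls, since Tyr gained one, and leaving out 1 library gave 2 to 3. Dct and Tyrp1 kept both diet calls wherever they were tested. The cause of these shifts was not tested. No paired analysis was possible because the library codes are not shared between groups. For Tyr, Mlana and Sox10, depth limited what could be seen on the I3C diet.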
